A study of Schizosaccharomyces pombe with 6 samples.

Results

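The mRNAs described here are 7 of fission yeast, those of tim8, mdm35, sss1, gim1, mcs2, hap2 and sgf11. These genes were chosen because the study followed the splicing, mRNA or protein of these intron-containing genes in cells without Mug174, and they are 7 of the 7001 features listed and 7 of the 2397 coding features with at least 1 intron. Total RNA came from whole Schizosaccharomyces pombe cells grown in rich YES medium at 32 °C, with 2 libraries each of mug174Δ cells, red1Δ cells and WT cells. The mug174Δ cells lack Mug174, the fission yeast ortholog of the Cajal body protein Coilin, and the red1Δ cells lack Red1, a subunit of the MTREC complex that hands nuclear RNAs to the exosome. No agent was given to any strain, and the study calls its sequencing experiments independent, but the labels do not say whether the libraries of a strain came from separate cultures. The error behind each p-value may therefore be technical only.

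Introns are removed by the spliceosome, which recognises a 5′ splice site that opens the intron, a branch point sequence with the reacting adenosine, and an AG at the 3′ end. Cajal bodies are places where the small nuclear RNPs of the spliceosome mature, and MTREC with the nuclear exosome removes unspliced transcripts. An intron that stays in an mRNA usually brings a stop codon into the reading frame. The deposited values count reads over coding segments only. How reads that reach from a coding segment into an intron were counted is not stated. A spliced and an unspliced molecule of a gene may therefore add to its value unequally. What is described below is the amount of coding RNA of each gene and not the share of it that was spliced.

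All 7 genes have a coding length below the median of coding features, and together they hold 13 introns within their coding spans. Within these spans mdm35 and sgf11 have 1 intron each, tim8, sss1, mcs2 and hap2 have 2 each, and gim1 has 3. The RefSeq annotation lists 1 more intron of sgf11, outside its coding span, which is not described here. Coding length was 264 bases in tim8, 210 in mdm35, 213 in sss1, 345 in gim1, 969 in mcs2, 234 in hap2 and 354 in sgf11, against a median of 1134 bases over the 5166 coding features. Introns took up 56.4% of the span from start to stop codon in sss1, 46.0% in tim8 and 12.5% in mcs2. The coding segments of each gene were the same in the deposited table and in the RefSeq annotation of ASM294v3, from which all coordinates and sequences here were read. In that build the coding spans are chrI:180423-180911 on the plus strand for tim8, chrII:744069-744340 plus for mdm35, chrI:756598-757085 minus for sss1, chrI:3441687-3442287 minus for gim1, chrII:1893156-1894262 plus for mcs2, chrIII:660851-661181 minus for hap2 and chrI:1371718-1372307 minus for sgf11. No other listed feature overlapped these coding spans. On the opposite strand, RefSeq gene spans of long non-coding RNAs overlap those of tim8, sss1, mcs2 and sgf11, the span of trs33 overlaps that of tim8, and the span of pkl1 overlaps that of gim1. The libraries were strand-specific, but whether the deposited values were counted by strand is not stated, so for these 5 genes reads of the opposite strand cannot be set apart with certainty. In the fit described below the log2 fold change of trs33 was 0.54 in mug174Δ cells and 0.26 in red1Δ cells against WT, and that of pkl1 was 0.74 and 1.19 in the same strains, and their part in the tim8 and gim1 values was not tested.

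**Figure D1:**
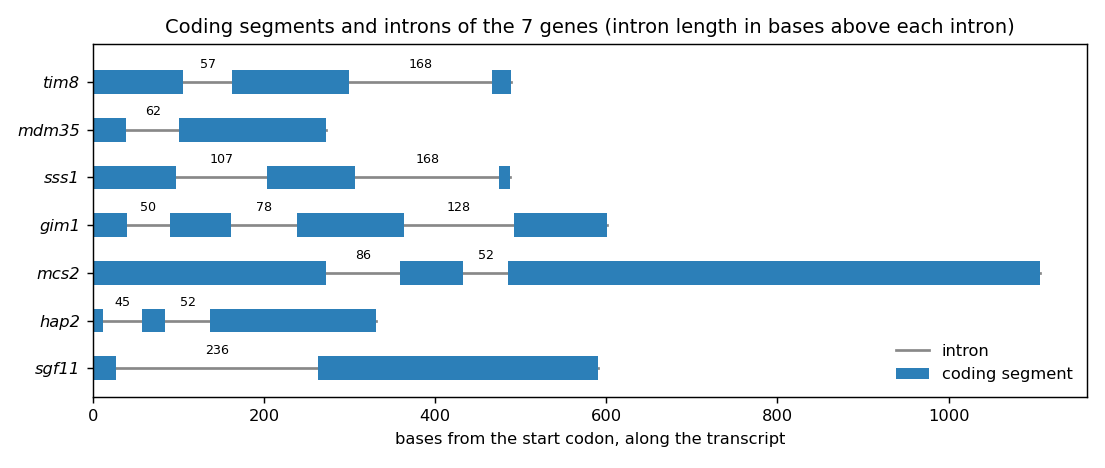
Coding segments (blocks) and introns (lines) of the 7 genes, drawn to scale in bases from the start codon along the transcript, with the length of each intron above it. The introns run between 45 bases in hap2 and 236 bases in sgf11.

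The first intron within each coding span is shown because those of tim8, mdm35, sss1 and mcs2 lie between the study's RT-PCR primers, and because the opening bases differ from gene to gene. Sequences run 5′ to 3′ on the coding strand, and capitals mark the first 6 bases, a match to the branch point motif CTNAN where one lies 4 to 50 bases before the last base, and the closing AG. Of several matches CTAAC was taken before CTAAT and CTAAT before any other, and then the one nearest the 3′ end. Other matches are left unmarked, such as CTGAC in mdm35 intron 1, so a marked match need not be the branch point used.
tim8 intron 1, chrI:180529-180585: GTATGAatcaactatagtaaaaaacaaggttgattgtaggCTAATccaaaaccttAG
mdm35 intron 1, chrII:744108-744169: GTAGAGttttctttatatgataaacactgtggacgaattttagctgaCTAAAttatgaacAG
sss1 intron 1, chrI:756882-756988: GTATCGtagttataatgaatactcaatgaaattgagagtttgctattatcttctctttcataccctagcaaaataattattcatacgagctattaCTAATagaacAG
gim1 intron 1, chrI:3442198-3442247: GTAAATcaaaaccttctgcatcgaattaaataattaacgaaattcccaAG
mcs2 intron 1, chrII:1893429-1893514: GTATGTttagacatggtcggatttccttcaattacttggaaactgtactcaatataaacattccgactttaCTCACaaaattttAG
hap2 intron 1, chrIII:661125-661169: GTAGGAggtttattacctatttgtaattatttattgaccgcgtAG
sgf11 intron 1, chrI:1372045-1372280: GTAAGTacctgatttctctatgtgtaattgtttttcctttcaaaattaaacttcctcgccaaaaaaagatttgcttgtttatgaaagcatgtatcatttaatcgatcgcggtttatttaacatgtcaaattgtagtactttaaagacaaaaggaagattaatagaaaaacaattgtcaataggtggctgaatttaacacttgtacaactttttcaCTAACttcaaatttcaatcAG

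Among the 5046 introns between coding segments, the pattern GTANGT stood at the 5′ end of 53.8%. GTATGT, which opens both mcs2 introns and gim1 intron 3, was found in 19.9% of all introns, and GTAAGT, which opens the sgf11 intron shown and sss1 intron 2, in 27.4%. The first introns of mdm35 and sss1 open with rare letters: GTAGAG stood at the start of 6 introns and GTATCG at the start of 3. Those of hap2 are also uncommon, with GTAGGA in 0.357% of introns and GTGTGT, at hap2 intron 2, in 0.515%. A CTNAN match in the window was present in 86.8% of all introns, searched on the coding strand, and was not found in sss1 intron 2, any of the 3 gim1 introns or hap2 intron 1. These matches describe letters and say nothing of how well an intron is spliced.

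If kept in the mRNA, 12 of the 13 introns hold the first in-frame stop codon that a ribosome would meet, and over 5020 introns of all genes the share was 86.0%. With its first intron kept, mdm35 has 29 codons before the stop instead of 69, sss1 has 41 instead of 70, tim8 has 40 instead of 87, and mcs2 has 109 instead of 322. The sgf11 intron within the coding span, close to the start codon, leaves 12 codons instead of 117. The exception is hap2 intron 2, where the frame runs through the intron and stops beyond it, after 36 codons instead of 77.

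The primer pairs of the study's RT-PCR each span 1 intron. Both primers of each pair matched at 1 place in a window around their gene, and the rest of the genome was not searched.
mdm35 forward: atgtcgtcctctgttagtgaag
mdm35 reverse: ttcaaagccttcaaaagacat
tim8 forward: tcctatagccgatttgagtgaaag
tim8 reverse: gatgatgtggaagttacaatcaag
mcs2 forward: tttgcctccaactcttaccg
mcs2 reverse: tggactatactccatgacagag
sss1 forward: atggctgacaacgctgacg
sss1 reverse: gcaacggccttagaaatgctc
From these positions the unspliced and spliced products are 223 and 161 bases for mdm35, 274 and 217 for tim8, 255 and 169 for mcs2, and 232 and 125 for sss1. Every amplified intron is the first of its gene, so tim8 intron 2, sss1 intron 2 and mcs2 intron 2 are outside the products.

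The libraries held 16565908 to 18627129 reads over the listed features, and every value in the table came to a whole number of reads within 0.01 read. The 7 mRNAs had 536 to 1519 reads per library, so all 7 passed the filter on low values (at least 1 RPKM, reads scaled to coding length and to library depth, in at least 2 libraries), which left 5949 features to test. The deleted genes matched the labels, with mug174 at 0.0321 and 0 RPKM in mug174Δ cells against 21.5 and 20.1 RPKM in WT cells, and red1 at 0.0270 and 0.0541 RPKM in red1Δ cells against 62.7 and 57.1 RPKM in WT cells. The summed level of 7 markers of meiosis was 131 and 135 RPKM in mug174Δ cells, 277 and 336 RPKM in red1Δ cells and 98.0 and 96.1 RPKM in WT cells, with spo4 and meu10 listed at 0 in all 6 libraries. Of the red1Δ sums, mei4 alone made up 148 and 176 RPKM. In the fit described below the log2 fold change in red1Δ cells against WT was 4.58 for mei4, 0.66 for spo6, 0.44 for spn5, 0.90 for spn6 and 0.25 for isp3. The part of these markers in the values below was not tested.

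Fold changes below are on the log2(RPKM + 0.5) scale from limma over all 6 libraries, with p-values adjusted by Benjamini and Hochberg over the 5949 features. The median of all tested features was itself above 0, at 0.18 for mug174Δ against WT and 0.35 for red1Δ against WT, and at -0.18 for mug174Δ against red1Δ. Both comparisons with WT use the same pair of WT libraries.

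In mug174Δ cells the coding RNA of 1 of the 7 genes, mcs2, was called higher than in WT cells, and none was called lower. Over all tested features 19.8% were called higher and 5.53% lower, and after scaling by median ratios the calls were 582 higher and 602 lower in place of 1179 and 329. The 7 log2 fold changes ran between -0.05 for sgf11 and 0.41 for mcs2 with a median of 0.10, and 2 of the 7 were above the median of all features. No member passed the study's fold limit of 0.6 on the log2 scale, which 19.3% of tested features passed in either direction. In red1Δ cells mcs2, hap2 and sgf11 were called higher than in WT cells and none lower, beside 48.4% and 7.33% of all features (2880 and 436, or 1074 and 1135 after scaling). There the fold changes ran between 0.03 for gim1 and 0.48 for sgf11 with a median of 0.24, 3 of the 7 were above the median of all features, and none passed the fold limit, which 33.8% of features passed. Between the mutants, sgf11 was called lower in mug174Δ cells than in red1Δ cells and none was called higher, beside 16.1% and 3.28% of all features (958 and 195, or 439 and 336 after scaling). At an unadjusted p under 0.05 in limma the counts of members were again 1 and 3 against WT, with none lower, and 2 between the mutants (hap2 and sgf11, both lower in mug174Δ cells), and limma with voom weights made the same number of calls as the main test in each comparison. None of the calls was kept after median ratio scaling.

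**Figure D2:**
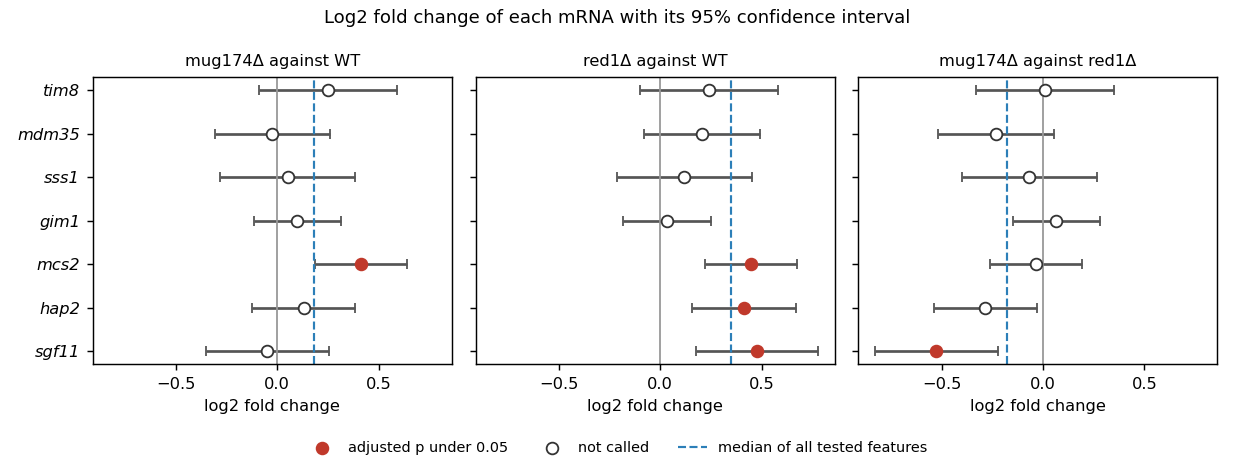
Log2 fold change (x axis, log2 scale) of each mRNA with its 95% confidence interval from limma, for mug174Δ against WT, red1Δ against WT and mug174Δ against red1Δ. Filled points have an adjusted p under 0.05: mcs2 in the first panel, mcs2, hap2 and sgf11 in the second and sgf11 in the third, with the dashed line at the median of all tested features (0.18, 0.35 and -0.18).

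Mcs2 is the cyclin of the CDK-activating kinase, which as part of TFIIH phosphorylates RNA polymerase II. Its mRNA had 50.5 and 46.5 RPKM in mug174Δ cells and 50.4 and 48.9 RPKM in red1Δ cells, against 34.8 and 37.8 RPKM in WT cells. All 4 mutant libraries were above both WT libraries, and the mutants overlapped each other. The level in mug174Δ cells was 33.1% above WT (log2 fold change 0.41, SE 0.09, adjusted p = 0.0269, limma), and that in red1Δ cells 36.4% above WT (0.45, SE 0.09, adjusted p = 0.0101, limma). Relative to the median of all features the changes were 0.23 and 0.10, and after median ratio scaling neither was called (adjusted p = 0.153 and 0.529, limma). When any 1 mug174Δ or WT library was left out, the log2 fold change in mug174Δ cells was between 0.35 and 0.47 and was not called. Without WT replicate 1 that in red1Δ cells was 0.39 and was not called. Such fits leave 1 library in a compared strain and called far fewer features of any kind. The lost calls therefore do not show how stable the mcs2 values are. Mutants differed from each other by -0.03, with a 95% interval of -0.26 to 0.19.

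Hap2 is a subunit of the Ino80 chromatin remodelling complex. Its mRNA had 203 and 187 RPKM in mug174Δ cells and 218 and 258 RPKM in red1Δ cells, against 174 and 181 RPKM in WT cells. Both mutants were above both WT libraries, and red1Δ was above mug174Δ in every library. The rise of 33.2% in red1Δ cells passed the test (log2 fold change 0.41, SE 0.10, adjusted p = 0.0187, limma), but was no longer called after median ratio scaling (0.05). It was also not called without either WT library, where 1 WT library was left. The log2 fold change was then 0.39 without WT replicate 1 and 0.44 without WT replicate 2. In mug174Δ cells the log2 fold change was 0.13 with a 95% interval of -0.12 to 0.38, which did not pass the test. The difference between the mutants, -0.28, had an adjusted p of 0.103 (limma), and without red1Δ replicate 1, with 1 red1Δ library left, it was -0.40.

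Sgf11 belongs to the deubiquitinating module of the SAGA coactivator. Its mRNA had 91.4 and 92.2 RPKM in mug174Δ cells and 117 and 149 RPKM in red1Δ cells, against 97.8 and 92.3 RPKM in WT cells. Both red1Δ libraries lay above the other 4, and both mug174Δ libraries lay below WT, with means that differed by less than the gap between the WT libraries. In red1Δ cells the level was 39.2% above WT (log2 fold change 0.48, SE 0.12, adjusted p = 0.0205, limma). The call was lost with no filter (adjusted p = 0.0553, limma) and after median ratio scaling (adjusted p = 0.384, limma). It was also lost without either WT library, where 1 WT library was left and the log2 fold change was 0.52 without replicate 1 and 0.44 without replicate 2. In mug174Δ cells the log2 fold change was -0.05, with a 95% interval of -0.35 to 0.25, and after median ratio scaling it was -0.22 (adjusted p = 0.151, limma). The mug174Δ level was 30.6% below the red1Δ level (-0.53, SE 0.12, adjusted p = 0.0371, limma). That difference was not called with no filter (adjusted p = 0.0879, limma), without a trend (adjusted p = 0.0582, limma) or with only these strains in the fit (adjusted p = 0.0768, limma). It was also not called when any 1 mug174Δ library, red1Δ replicate 2 or any 1 WT library was left out. In these settings the log2 fold change stayed between -0.53 and -0.52, except without red1Δ replicate 2, where it was -0.35. Without a mug174Δ or red1Δ library, 1 library was left in a compared strain, so a lost call there does not show how stable the difference is. After median ratio scaling it was -0.34 (adjusted p = 0.0682, limma).

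Tim8 is a small chaperone of the mitochondrial intermembrane space that guides membrane proteins to the inner membrane. Its mRNA had 180 and 144 RPKM in mug174Δ cells and 146 and 176 RPKM in red1Δ cells, against 133 and 138 RPKM in WT cells. All 4 mutant libraries were above both WT libraries, but the replicates of each mutant lay far apart, 22.1% of their mean in mug174Δ cells and 18.9% in red1Δ cells. Neither difference passed the test, at 0.25 in mug174Δ cells (95% interval -0.09 to 0.59, adjusted p = 0.219, limma) and 0.24 in red1Δ cells (-0.10 to 0.58, adjusted p = 0.184, limma). In mug174Δ cells the value was 0.09 without replicate 1 of that strain, 0.41 without replicate 2 and 0.08 after median ratio scaling. In red1Δ cells it was 0.38 without replicate 1, 0.10 without replicate 2 and -0.12 after scaling.

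Mdm35 is a small protein of the same compartment, known in budding yeast as the partner of the lipid carrier Ups1. Its mRNA had 256 and 224 RPKM in mug174Δ cells and 258 and 308 RPKM in red1Δ cells, against 247 and 241 RPKM in WT cells. The mug174Δ libraries lay on both sides of WT, and the red1Δ libraries above it. After median ratio scaling the log2 fold change in mug174Δ cells was -0.20 (adjusted p = 0.203, limma). As deposited the log2 fold change was -0.03 in mug174Δ cells, with a 95% interval of -0.31 to 0.26. On that scaling only, a fall of more than 19.3% or a rise of more than 19.6% lay outside the interval. In red1Δ cells the log2 fold change was 0.21 (95% interval -0.08 to 0.49, adjusted p = 0.173, limma), and without red1Δ replicate 1, with 1 red1Δ library left, it was 0.33. Without that library the difference between the mutants was -0.36, against -0.23 with it (adjusted p = 0.194, limma).

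Sss1 is the gamma subunit of the Sec61 translocon, the channel through which proteins enter the endoplasmic reticulum. Its mRNA had 283 and 233 RPKM in mug174Δ cells and 278 and 261 RPKM in red1Δ cells, against 225 and 273 RPKM in WT cells. The strains overlapped, and the WT libraries themselves differed by 19.4% of their mean. The log2 fold change was 0.05 in mug174Δ cells (95% interval -0.28 to 0.38, adjusted p = 0.794, limma) and 0.12 in red1Δ cells (-0.21 to 0.45, adjusted p = 0.475, limma).

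Gim1 is subunit 6 of prefoldin, which passes newly made actin and tubulin to the chaperonin. Its mRNA had 246 and 236 RPKM in mug174Δ cells and 237 and 223 RPKM in red1Δ cells, against 238 and 213 RPKM in WT cells. It varied least of the 7, with the highest library 1.16 times the lowest. The log2 fold change was 0.10 in mug174Δ cells (95% interval -0.12 to 0.32, adjusted p = 0.421, limma) and 0.03 in red1Δ cells (-0.18 to 0.25, adjusted p = 0.759, limma). After median ratio scaling the red1Δ value was -0.33 with an adjusted p of 0.0504 (limma).

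**Figure D3:**
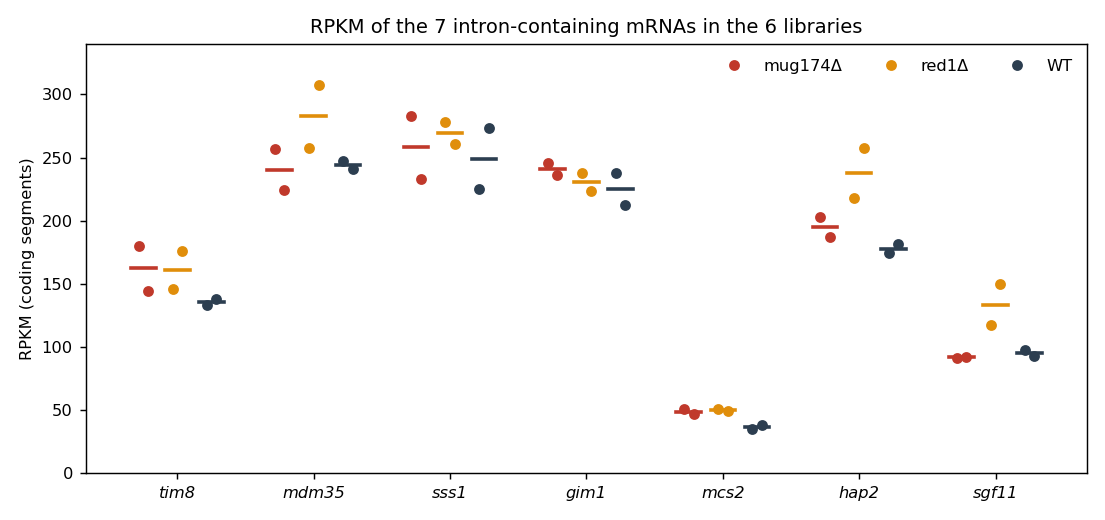
RPKM over coding segments (y axis, linear, from 0) of the 7 mRNAs, with a point for each library and a bar at the mean of each strain (n = 2). The mcs2 points of both mutants lie above WT, and the sgf11 points of red1Δ, 117 and 149 RPKM, lie above the other 4.

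Counted over libraries, 3 of the 7 mRNAs had both mug174Δ values above both WT values (tim8, mcs2 and hap2) and 1 had both below (sgf11), where 54.9% and 20.3% of all tested features did so. In red1Δ cells 5 of the 7 lay wholly above WT (tim8, mdm35, mcs2, hap2 and sgf11) and none wholly below, where 66.6% and 13.3% of all features did. Between the mutants 3 lay wholly lower in mug174Δ cells (mdm35, hap2 and sgf11) and none wholly higher, where 52.1% and 14.3% did. The members' counts are thus close to or below those of all features in the higher direction against WT. Over the 7 mRNAs the lowest lower limit of a 95% interval against WT, as deposited, was a change of -21.7% in mug174Δ cells, for sgf11, and -13.7% in red1Δ cells, for sss1. These limits hold for that scaling only, since after median ratio scaling the red1Δ log2 fold changes themselves were -0.33 for gim1 and -0.24 for sss1. The mug174Δ log2 fold changes after that scaling were -0.22 for sgf11 and -0.20 for mdm35.

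Levels between genes are given as RPKM, which is per coding length, without a check of how reads of the opposite strand or the short lengths bear on the order. In WT cells the order of mean RPKM was sss1 (249), mdm35 (244), gim1 (225), hap2 (178), tim8 (135), sgf11 (95.1) and mcs2 (36.3). The WT libraries of sss1 and mdm35 overlapped, and every other pair of neighbours was separate. Over all 6 libraries, hap2 was above tim8, tim8 above sgf11 and sgf11 above mcs2 in each, while mdm35 was above gim1 in 5 of 6. Among the 4751 tested coding features, the mean level of sss1 stood at percentile 86.6 and that of mcs2 at percentile 32.3.

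The genes were also set among coding features with as many introns. For mug174Δ against WT the median log2 fold change was 0.14 over 2501 coding features with no intron, 0.15 with 1 intron, 0.16 with 2, 0.18 with 3, 0.20 with 4, 0.16 with 5 and 0.18 with 6 or more. The values of mdm35 and sgf11 lay below the median of features with 1 intron, and gim1 below that of features with 3. Against features with 2 introns, mcs2 and tim8 were above the median and sss1 and hap2 below it. For red1Δ against WT the medians were 0.31 with no intron, 0.25 with 1, 0.29 with 2, 0.26 with 3, 0.28 with 4, 0.27 with 5 and 0.37 with 6 or more, and sgf11, mcs2 and hap2 were above the median of their class. Features with introns and a coding length of at most 400 bases, the class to which all members but mcs2 belong, had medians of 0.11 in mug174Δ cells and 0.17 in red1Δ cells (n = 272).

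**Figure D4:**
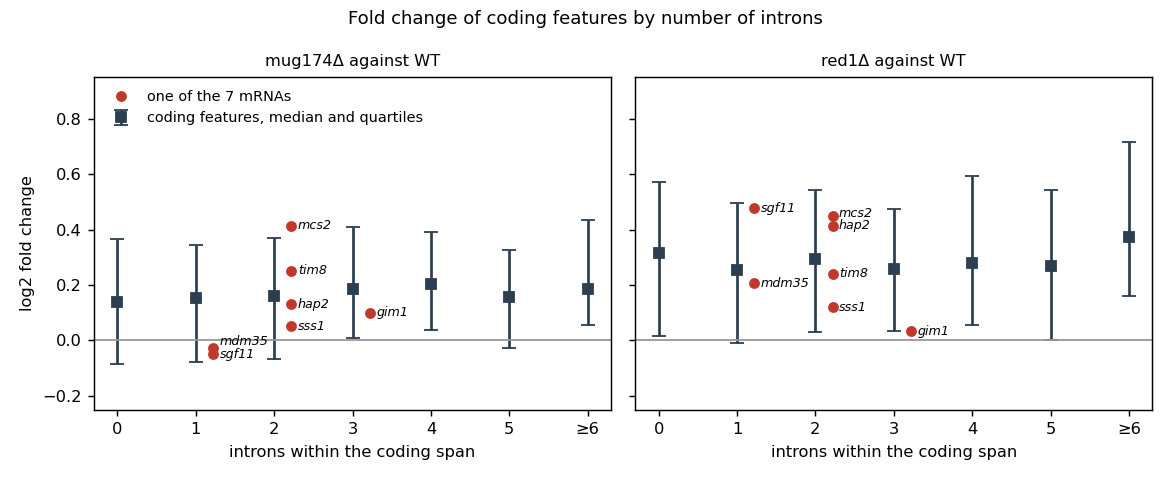
Log2 fold change against WT (y axis) of tested coding features by number of introns within the coding span (x axis), for mug174Δ and red1Δ, with squares at the median and bars to the quartiles. Points are the 7 mRNAs, of which 6 lie between the quartiles of their class in mug174Δ cells, with mcs2 at 0.41 above, and all 7 in red1Δ cells, gim1 at the lower quartile itself.

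Each gene was counted together with its partners, from lists of the complex or pathway of its protein, so every count includes the gene itself. The counts are to be read beside the 19.8% of all features raised and 5.53% lowered in mug174Δ cells, the 48.4% and 7.33% in red1Δ cells and the 3.28% and 16.1% in mug174Δ against red1Δ cells. Of the CDK-activating kinase and TFIIH genes, 5 of 10 tested were higher in mug174Δ cells and none lower, with a list median of 0.27 against 0.18 over all features. They were mcs2, csk1 (0.50), pmh1 (0.49), tfb2 (0.58) and ptr8 (0.30), where Pmh1 is the assembly factor of the kinase and Tfb2 and Ptr8 are TFIIH subunits. In red1Δ cells 8 of the 10 were higher and none lower, led by csk1 at 1.09, with a median of 0.48 against 0.35. After median ratio scaling 2 of 10 were higher in mug174Δ cells and 1 of 10 in red1Δ cells.

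Of the SAGA genes, 3 of 18 tested were higher in mug174Δ cells (taf12 at 0.90, spt7 at 0.31 and taf5 at 0.32) and none lower, while after median ratio scaling 1 was higher and 2 lower. In red1Δ cells 14 of 18 were higher and none lower, with a median of 0.49 against 0.35 over all features, among them sgf11 and ubp8 (1.08), the protease of the same deubiquitinating module. Between the mutants 7 of the 18 were lower in mug174Δ cells, sgf11 with gcn5, ngg1, taf10, sus1, spt7 and ada2, and taf12 was higher. After median ratio scaling 2 were higher and 2 lower in red1Δ cells against WT, and 1 was higher and 1 lower in mug174Δ against red1Δ cells. Of the 13 INO80 genes, 1 was higher in mug174Δ cells (ies6 at 0.54) and 6 in red1Δ cells, hap2 among them, with none lower. After scaling 1 was higher and 1 lower in mug174Δ cells (median -0.02), and 1 was higher and 2 lower in red1Δ cells (median -0.11).

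Of the genes for import into the intermembrane space, 3 of 14 were higher in mug174Δ cells (tim9 at 0.47, erv1 at 0.36 and mia40 at 0.28) and tim10 was lower at -0.29, while after scaling none was higher and 2 were lower. Tim9 and Tim10 are small chaperones of the same family as Tim8, and Mia40 with Erv1 forms the disulfides of such proteins. In red1Δ cells 2 were higher (erv1 and cox19) and tim10 was again lower at -0.36, and after scaling none was higher and 4 were lower. Of the 8 Sec61 translocon genes none was called in mug174Δ cells, and sec71, sec72 and sec63 were higher in red1Δ cells. Of the 12 tested prefoldin and chaperonin genes, bob1 was higher in both mutants (0.47 in mug174Δ cells and 0.41 in red1Δ cells), and cct3 (-0.27) and cct7 (-0.79) were lower in red1Δ cells. After scaling none of these Sec61 or prefoldin genes was higher, 1 Sec61 gene was lower in mug174Δ cells and 3 in red1Δ cells, and 1 and 7 of the prefoldin and chaperonin genes were lower in these strains in the same order.

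Besides these, atg5, atg7, vps3, prr1 and smd3 were included because the study also looked at their introns. In mug174Δ cells smd3, an Sm protein of the spliceosome, was higher at 0.48 (adjusted p = 0.0294, limma), with 173 and 165 RPKM against 110 and 134 RPKM in WT cells. In red1Δ cells atg7 (0.88) and vps3 (0.58) were higher and prr1 (-0.47) was lower. For atg5 the log2 fold changes were -0.08 in mug174Δ cells and -0.07 in red1Δ cells, which did not pass the test. After median ratio scaling none of these 5 genes was higher and 1 was lower in mug174Δ cells, and 1 was higher and 2 were lower in red1Δ cells.

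For each mRNA the coding features with the most similar profile were found as those with the smallest root mean square difference of log2 values, each centred on its mean over the 6 libraries. The closest were ure6 for tim8 (0.0643), lsb5 for mdm35 (0.0377), lsm7 for sss1 (0.0642), spt4 for gim1 (0.0285), SPAC12B10.02c for mcs2 (0.0390), cab5 for hap2 (0.0220) and fin1 for sgf11 (0.0331). The next were rpp40, med20, tam9, sws2, erg7, rbx1 and SPCC550.08 in the same order of genes. Each came from 4750 features compared.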

How the data were processed

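RNA sequencing was compared in 2 libraries each of mug174Δ, red1Δ and WT cells. The deposited table gives RPKM for 7001 features, made by the authors from reads in listed segments, which for coding genes are the coding exons. The paper names HISAT2, poly(dT) enrichment and ASM294v2, the labels name a ribosomal RNA depletion kit, while STAR 2.5.3a and StringTie 1.3.1c appear, with FastQC 0.11.6, in the submitters' processing notes. Which of these made the table, with which read counter and whether by strand, is not stated. The table also holds log2 fold changes and p-values that the authors computed for each mutant, which were left unused. Multiplying RPKM by length and depth gave whole reads for all values within 0.01 read.

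Log2(RPKM + 0.5) of the 5949 features with at least 1 RPKM in at least 2 libraries was fitted with limma 3.58.1 in R 4.3.3, with a mean per strain over all 6 libraries, a trended prior and two-sided tests. P-values were adjusted by Benjamini and Hochberg over all 5949, with a threshold of 0.05. The fit was tested on simulated data with known fold changes: fold changes were recovered and p-values of unchanged features were calibrated, but the share of false calls among features called was above the nominal level in every simulated set, mostly from features near the filter and well below the levels of the 7 mRNAs. Only mug174Δ against WT was simulated, with the same spread for all features and as many raised as lowered. No shift of the median between strains was put in, so calibration of the p-values under the shifts seen here was not tested. Introns, splice site letters and primers were read from ASM294v3 (RefSeq), where 97.9% of the coding features found had the same segments as the table.

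The 7 mRNAs and the gene lists were chosen with earlier results of these data known. Named are the 7 mRNAs, list members past the threshold, the deleted genes, the markers and the 2 closest profiles per mRNA. Alternatives changed the pseudocount, filter, scaling, prior, samples and weights, and left out each library in turn.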

Additional observations from a re-analysis of the deposited data

How the results depend on the processing

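With 1 of the 6 libraries left out, raised features ranged between 14 and 1814 for mug174Δ against WT (lowered, 13 to 618), 1433 and 3099 for red1Δ against WT (lowered, 148 to 563), and 16 and 448 for mug174Δ against red1Δ (lowered, 89 to 1777). Members called higher ranged between 0 and 1 in mug174Δ cells and 0 and 4 in red1Δ cells, and members called lower in mug174Δ than in red1Δ cells between 0 and 3.

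With no filter, 667 features were raised and 176 lowered for mug174Δ against WT, and 544 were lowered and 0 members called lower for mug174Δ against red1Δ. Median ratio scaling gave 582 raised and 602 lowered for mug174Δ against WT, 1074 and 1135 for red1Δ against WT, and 336 and 439 for mug174Δ against red1Δ, with 0 members called in each. Fitting only the 2 strains compared gave 611 lowered for mug174Δ against WT, and 100 raised and 411 lowered for mug174Δ against red1Δ, with 0 members called lower, as without a trend. The cause was not tested.

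Directions turned under median ratio scaling for members with small fold changes: for mug174Δ against WT sss1 (-0.12), gim1 (-0.075) and hap2 (-0.045), for red1Δ against WT tim8 (-0.12), mdm35 (-0.16), sss1 (-0.24) and gim1 (-0.33), and for mug174Δ against red1Δ sss1 (0.12) and mcs2 (0.15). With 1 library left out, ranges that spanned 0 were -0.088 to 0.19 for sss1 and -0.12 to 0.072 for mdm35 (mug174Δ against WT), -0.020 to 0.26 for sss1 and -0.047 to 0.11 for gim1 (red1Δ against WT), and -0.15 to 0.17 for tim8, -0.21 to 0.072 for sss1 and -0.094 to 0.025 for mcs2 (mug174Δ against red1Δ). None of these turned values was called.

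Whether the replicate numbers pair the libraries cannot be told from these values. The differences between replicates correlated across features at 0.06 between mug174Δ and red1Δ, 0.19 between mug174Δ and WT and 0.23 between red1Δ and WT. A fit with the replicate block called 1382 features raised and 381 lowered for mug174Δ against WT, 2994 and 486 for red1Δ against WT, and 280 and 1081 for mug174Δ against red1Δ, and changed no call of a member.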
